A study of Homo sapiens with 5 samples.

Results

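The 34 genes described here carry out or control glucose breakdown in the cytosol and the entry of its carbon into mitochondria and into the pentose phosphate pathway. They were taken by gene symbol from the 26485 genes of the count table. All 34 had a row, and 33 of them passed the filter on low counts, as did 14187 genes in all. Only PDK4 was left out, with 0, 0, 1, 0 and 2 reads in the 5 libraries.

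RPE1 is an established, immortalized human line of retinal pigment epithelial cells, described as wild type in the labels. Poly-A RNA was sequenced from cells given the solvent DMSO (2 libraries), 0.2 μM doxorubicin (2 libraries) or 0.34 μM doxorubicin (1 library), each for 18 h. Doxorubicin is an anthracycline that intercalates into DNA and inhibits topoisomerase II. The libraries of both doses were pooled as doxorubicin (3 libraries) and set against DMSO, to ask which transcripts differ after drug treatment.

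Glycolysis turns glucose into pyruvate in the cytosol, and its pace is set largely at the hexokinase and phosphofructokinase steps. Lactate dehydrogenase reduces pyruvate to lactate, while the pyruvate dehydrogenase complex, which PDH kinases switch off, sends it into the mitochondrial citric acid cycle. The pentose phosphate pathway branches from glucose 6-phosphate, yields NADPH and ribose 5-phosphate for nucleotides, and returns surplus sugars to glycolysis through transketolase and transaldolase. Retinal pigment epithelium spares glucose for the photoreceptors and can use lactate as fuel.

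Depth ranged from 23773061 to 36725345 counts per library, and the 0.34 μM library was the deepest. CDKN1A, the p53 target that encodes the cell-cycle inhibitor p21, was read at 294 and 258 CPM (the usual unit of counts relative to library size, here with TMM factors) in DMSO and at 2975, 2366 and 3358 CPM in doxorubicin (log2 fold change 3.39 ± 0.23 SE, edgeR adjusted p = 0.000768, and 0.0132 without DMSO replicate 2). Of 10 pigment epithelium markers, KRT8, KRT18, MITF and OTX2 were above 20 CPM in every library, while 6 (RPE65, RLBP1, BEST1, TYR, PMEL and TTR) were under 4 CPM everywhere, so the markers that define mature pigment epithelium were nearly absent. The 10 markers summed to 783 and 637 CPM in DMSO and to between 1050.2 and 1249 CPM in doxorubicin, mostly KRT8 (357 ± 16.7 CPM in DMSO and 653 ± 14.3 in doxorubicin, adjusted p = 0.0133 in edgeR and 2.7e-07 in DESeq2) and KRT18 (282 ± 62.7 and 436 ± 93.0 CPM). PMEL was at 0.231 ± 0.0503 and 1.15 ± 0.261 CPM (adjusted p = 0.0264 in edgeR and 0.00868 in DESeq2). The 7 markers of other cell types summed to 0.534 and 0.588 CPM in DMSO and to between 1.66 and 2.87 CPM in doxorubicin, where PTPRC, a leukocyte gene, held 0.967 to 2.20 CPM (adjusted p = 0.0212 in edgeR and 0.000571 in DESeq2). The part of either set of markers in the results was not tested.

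Promoter sequences are shown first for the member that passed the main test (TKT), for a kinase-phosphatase gene that passed DESeq2's test (PFKFB4), for LDHA, which was lower in every doxorubicin library, and for PDK1, whose DMSO libraries differed by 2.21-fold. RefSeq promoters on GRCh38.p14 matched 33 of the 34 members, PFKFB2 being the exception. Each line holds the 250 bases before an annotated start, read 5′ to 3′ on the gene's strand. Capitals mark ACGTG on either strand, a form of the core that hypoxia-inducible factors recognise. The other form, GCGTG, was not searched.
TKT, chr3:53256023-53256272, minus strand: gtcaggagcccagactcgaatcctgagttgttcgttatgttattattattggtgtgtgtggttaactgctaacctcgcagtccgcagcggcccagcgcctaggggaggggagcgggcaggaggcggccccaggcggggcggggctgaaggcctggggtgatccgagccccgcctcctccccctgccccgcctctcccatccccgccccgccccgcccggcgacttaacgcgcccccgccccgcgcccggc
PFKFB4, chr3:48556804-48557053, minus strand: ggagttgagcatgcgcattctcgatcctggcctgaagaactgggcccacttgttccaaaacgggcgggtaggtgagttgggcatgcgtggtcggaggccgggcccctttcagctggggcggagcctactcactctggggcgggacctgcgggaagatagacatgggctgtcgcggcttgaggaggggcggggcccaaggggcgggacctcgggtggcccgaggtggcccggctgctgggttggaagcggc
LDHA, chr11:18394313-18394562, plus strand: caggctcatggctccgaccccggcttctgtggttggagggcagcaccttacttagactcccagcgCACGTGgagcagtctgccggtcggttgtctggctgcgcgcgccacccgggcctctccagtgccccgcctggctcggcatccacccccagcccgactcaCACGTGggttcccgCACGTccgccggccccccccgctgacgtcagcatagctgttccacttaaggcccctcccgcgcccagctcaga
PDK1, chr2:172555840-172556089, plus strand: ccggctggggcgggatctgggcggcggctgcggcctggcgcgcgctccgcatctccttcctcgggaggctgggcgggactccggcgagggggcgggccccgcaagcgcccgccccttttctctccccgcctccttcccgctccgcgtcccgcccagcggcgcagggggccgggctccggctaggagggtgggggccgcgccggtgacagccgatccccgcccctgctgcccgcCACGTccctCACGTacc

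The TKT and PFKFB4 windows hold no ACGTG, the LDHA window holds it in runs that begin 185, 87 and 73 bases before the start, and the PDK1 window holds it 17 and 8 bases before the start. The runs at 185 and 87 bases are CACGTG, the palindromic E-box, which contains ACGTG on both strands. LDHA and PDK1 each have 2 annotated promoters, and the one with the matches is shown. Over windows of 300 bases (250 before the start and 50 after), ACGTG was found in 36.2% of the 58 member promoters and in 22.9% of the 22365 promoters of all counted genes, and CACGTG in 13.8% and 8.16%. By gene, 17 of 33 members (51.5%) had ACGTG in at least 1 promoter, against 28.1% of 16199 counted genes. The members had more promoters per gene (58 for 33 genes, against 22365 for 16199), which by itself raises their share by gene. Counted genes here are all genes with a row, also those that failed the filter on low counts, which nearly all members passed. The shares are thus of unlike sets of genes, and some windows of one gene overlap, as in HK1 and PFKM. A match to the p53 half-site was found in 5.17% of member promoters and 6.35% of the promoters of counted genes. The windows of the p53 targets CDKN1A and TIGAR held 0 matches, so this search cannot show whether a gene is a p53 target. A match gives letters in a window and does not show binding. A window without ACGTG can still hold the GCGTG form of the core, as the PFKFB4 window does.

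Transketolase rose in doxorubicin to 2.30 times its DMSO level, and it was the one member of the 33 tested that passed edgeR's test at an adjusted p of 0.01. PFKP, PFKFB2 and PFKFB4, which act at the phosphofructokinase step, were read 1.51 to 2.24 times higher and passed DESeq2's test but not edgeR's. LDHA was lower in every doxorubicin library, at 0.595 times its DMSO mean, and passed neither test. In 8 of the 16 members above 100 CPM in DMSO, among them HK1, TPI1, PGAM1 and PKM, the treatments differed less than the DMSO libraries did from each other. Single libraries differ more readily than means, and the share over all genes was not counted.

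Over the list, edgeR's quasi-likelihood test called 1 of 33 members higher (3.03%, where 1.29% of all 14187 genes were called higher) and 0 lower (2.73% of all genes were called lower). At an adjusted p under 0.05, edgeR called 4 members higher (6.1% of all genes) and 0 lower (7.48% of all genes). At an unadjusted p under 0.05, 7 members were higher (15.2% of all genes) and 2 lower, LDHA and PDHA1 (15.6% of all genes). With any one of the 3 doxorubicin libraries left out, edgeR called 0 members. The share of all genes called in those smaller fits is not given here, so this is no result about the members. DESeq2, which makes far more calls in these data, called 4 members higher (12.1%, against 6.37% of all genes) and 0 lower (7.72% of all genes). In 12 members every doxorubicin library lay above both DMSO libraries (36.4%, where 24.3% of all genes did so), and in 2 every one lay below (6.06%, where 23.4% did so). In the remaining 19 members the groups overlapped. The median log2 fold change was 0.09 over the members and 0.01 over all genes, and the median size of the change regardless of sign was 0.35 and 0.38. By point estimate 21 members were higher (63.6%, where 51.1% of all genes were) and 12 lower. However, HK1 and ENO2 turn negative when libraries are scaled by total counts alone, and TPI1 and PKM turn positive under upper-quartile scaling.

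**Figure D1:**
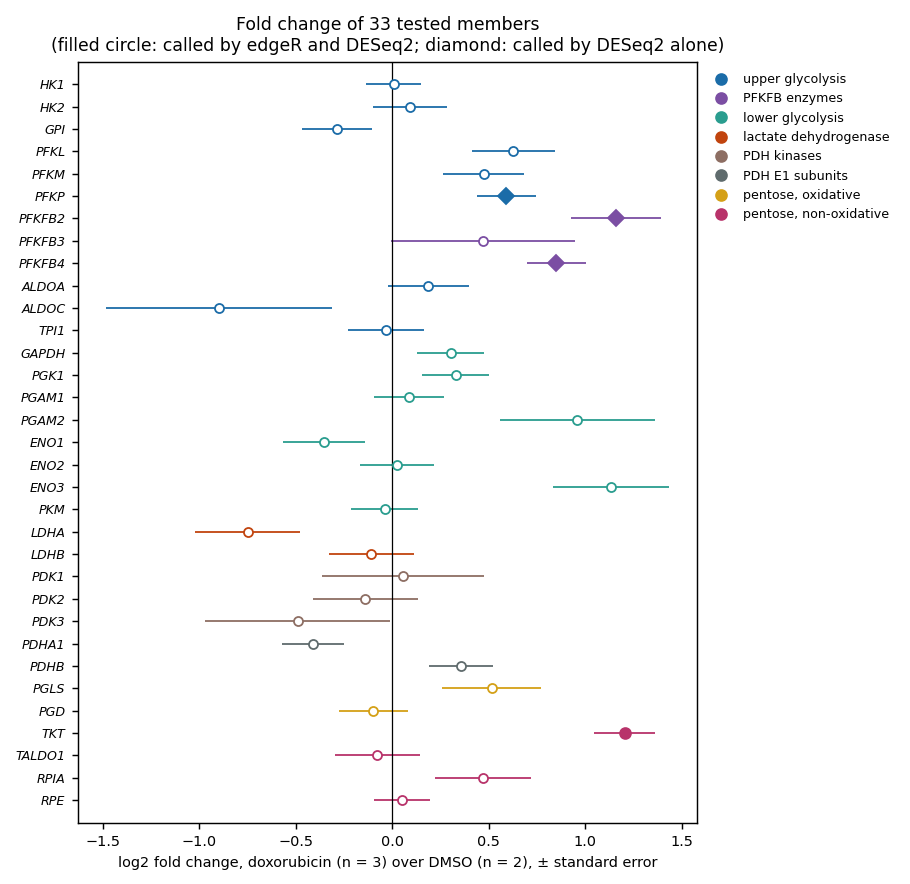
Log2 fold change of doxorubicin (3 libraries) over DMSO (2 libraries) for the 33 tested members, listed by role, with bars of 1 standard error from edgeR's fit. The filled circle is TKT, called by edgeR and DESeq2 at an adjusted p of 0.01, diamonds are PFKP, PFKFB2 and PFKFB4, called by DESeq2 alone, and most open circles lie within 0.5 of 0.

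Differences between libraries of one treatment set the scale for all of this. The DMSO libraries differed by at least 1.5-fold in 7 members (PFKM, PFKFB3, LDHA, PDK1, PDK2, PGLS and TALDO1), the 0.2 μM libraries in 6 (PFKFB3, ALDOC, PGAM2, LDHA, PDK1 and PDK3), and the treatment means in 9. In 17 of 33 members the log2 difference between the DMSO libraries was larger than the log2 fold change between the treatments. A difference of 2 single libraries varies more than one of means, so this can be frequent without any effect, and its share over all genes was not counted. The median size of the log2 difference between the DMSO libraries was 0.30 over the members and 0.36 over all genes. With 3 libraries against 2, the smallest two-sided p that an exact permutation test of a single value can give is 0.2, so only the fits across all genes were used as tests.

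Levels are compared between genes as TMM-scaled CPM per kilobase of exon. GAPDH stood highest of the members in DMSO at 3406 ± 247 (SD, n = 2), and its mean over both treatments was the second highest among tested genes with an exon length. It was followed by PKM at 1844 ± 294, ENO1 at 1136 ± 194 and LDHA at 1024 ± 343. ENO1 and LDHA did not differ beyond their spread. ALDOA (607 ± 27.9), TPI1 (416 ± 24.6), PGAM1 (362 ± 27.1) and LDHB (326 ± 91.4) came next, and transketolase followed at 233 ± 5.10. In doxorubicin transketolase stood at 536 ± 33 (n = 3), above TPI1 (407 ± 73.1) and near LDHA (609 ± 127). At the other end lay ENO3 at 1.06 ± 0.206, PGAM2 at 1.04 ± 0.0786, PDK3 at 0.834 ± 0.188 and ALDOC at 0.337 ± 0.0403. The list thus runs from one of the most abundant transcripts of the cell to transcripts read only a few times.

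Hexokinases trap glucose in the cell as glucose 6-phosphate. HK1, the housekeeping form, was read at 348 and 314 CPM in DMSO and at 340.4, 327 and 332 CPM in doxorubicin. HK2, the inducible form, was read at 71.4 and 59.9 CPM in DMSO and at 78.3, 56.5 and 75.2 CPM in doxorubicin. Neither differed beyond its spread, with log2 fold changes of 0.01 ± 0.14 for HK1 and 0.09 ± 0.19 for HK2 (edgeR adjusted p = 0.977 and 0.784). Per length, HK1 made up 88.4% and 89.1% of hexokinase transcripts in DMSO and 87.2%, 90.0% and 87.3% in doxorubicin. GPI, which isomerizes glucose 6-phosphate to fructose 6-phosphate, was read at 159.6 and 219 CPM in DMSO and at 169.9, 145 and 149.8 CPM in doxorubicin, with a log2 fold change of -0.29 ± 0.18 (adjusted p = 0.333).

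Phosphofructokinase commits sugar to glycolysis. Its platelet, liver and muscle subunits were each read higher in every doxorubicin library than in either DMSO library, as were 24.3% of all genes. PFKP, the platelet form and the main one here, was read at 286 and 272 CPM in DMSO and at 433, 384 and 445 CPM in doxorubicin. The groups did not overlap and its log2 fold change was 0.59 ± 0.15, which passed in DESeq2 (adjusted p = 0.00411) and missed the threshold in edgeR (adjusted p = 0.0482). PFKL, the liver form, was read at 95 and 119 CPM in DMSO and at 182, 128 and 186 CPM in doxorubicin, a log2 fold change of 0.63 ± 0.22 (edgeR adjusted p = 0.103). PFKM, the muscle form, was read at 46.8 and 72.8 CPM in DMSO and at 79.2, 88.5 and 81.3 CPM in doxorubicin, a log2 fold change of 0.47 ± 0.21 (adjusted p = 0.183) that went to 0.18 when DMSO replicate 1 was left out and to 0.81 when DMSO replicate 2 was. PFKL and PFKM passed neither test. PFKM overlaps SENP1 in the annotation, and how the counting treated overlapping genes is not known. The subunit mix moved little, PFKP making up 65.5% ± 5.60 of phosphofructokinase transcripts per length in DMSO (SD, n = 2) and 65.7% ± 0.916 in doxorubicin (n = 3).

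The PFKFB enzymes make and degrade fructose 2,6-bisphosphate, the strongest allosteric activator of phosphofructokinase. PFKFB4 was read at 19.6 and 19.4 CPM in DMSO and at 34.3, 33.8 and 37.4 CPM in doxorubicin. Replicates of each treatment lay close together, and its log2 fold change of 0.85 ± 0.15 passed in DESeq2 (adjusted p = 6.3e-05) but not in edgeR (adjusted p = 0.0161). PFKFB2, the heart form, was read at 11 and 8.03 CPM in DMSO and at 21.3, 18.0 and 24.6 CPM in doxorubicin. Its log2 fold change was 1.16 ± 0.23, the second largest of the members, and it too passed in DESeq2 (adjusted p = 0.000169) but not in edgeR (adjusted p = 0.0231). PFKFB2 overlaps YOD1, and its reads may be shared with that gene.

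PFKFB3, the hypoxia-inducible form with the highest kinase activity, varied widely between replicates. It was read at 53.4 and 28.4 CPM in DMSO, at 69.8 and 26.2 CPM in 0.2 μM doxorubicin and at 73.8 CPM in 0.34 μM doxorubicin. The replicates of one treatment were farther apart than the treatments, and the log2 fold change of 0.47 ± 0.47 did not pass (edgeR adjusted p = 0.552). PFKFB3 accordingly made up 62.4% and 48.7% of PFKFB transcripts per length in DMSO and 54.8%, 32.4% and 53.7% in doxorubicin. PFKFB2's share was 8.17% and 8.73% in DMSO and 10.6%, 14.1% and 11.4% in doxorubicin, higher in every doxorubicin library.

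**Figure D2:**
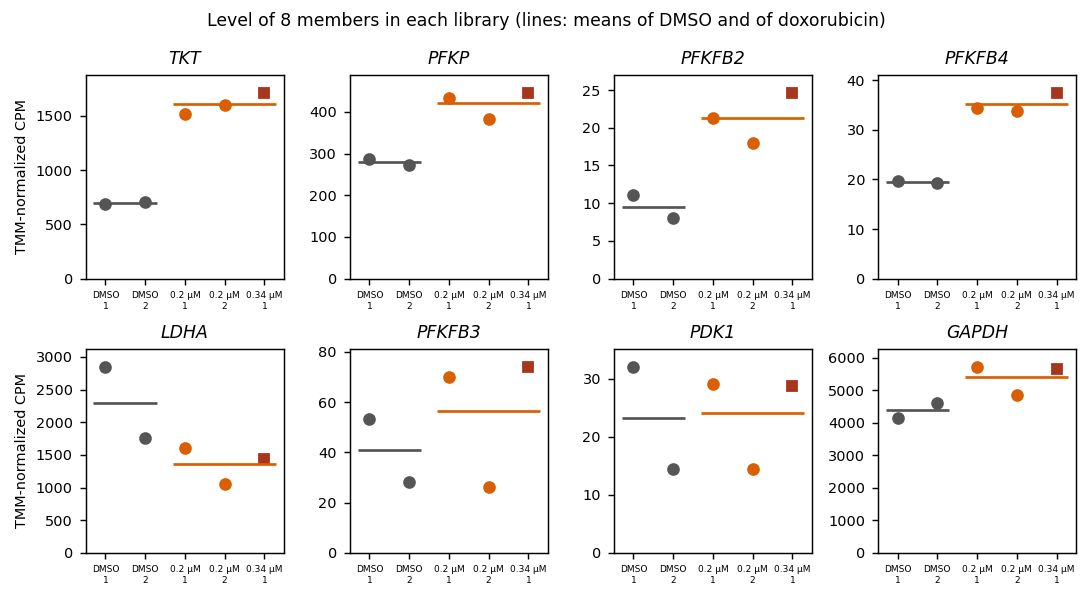
TMM-scaled CPM of 8 members in each library (grey, DMSO replicates; orange circles, 0.2 μM doxorubicin replicates; dark red square, 0.34 μM doxorubicin), with lines at the means of DMSO and of doxorubicin and every axis from 0. TKT, PFKP, PFKFB2 and PFKFB4 separate by treatment, whereas PFKFB3 and PDK1 are low in the second library of DMSO and of 0.2 μM doxorubicin.

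Aldolase splits fructose 1,6-bisphosphate, and ALDOA was nearly the only form present. ALDOA was read at 1028 and 963 CPM in DMSO and at 1286, 876 and 1234 CPM in doxorubicin, with a log2 fold change of 0.19 ± 0.21 (edgeR adjusted p = 0.600). ALDOC, the brain form, had between 5 and 15 reads in a library (0.496 and 0.588 CPM in DMSO, 0.193, 0.499 and 0.193 CPM in doxorubicin), and its log2 fold change of -0.90 ± 0.58, the lowest of the members, was not resolved at this depth (adjusted p = 0.347). TPI1, which interconverts the triose phosphates, was read at 539 and 586 CPM in DMSO and at 629.9, 439.6 and 581 CPM in doxorubicin, so its groups overlapped.

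In the payoff phase, GAPDH, which oxidizes glyceraldehyde 3-phosphate, was read at 4153 and 4601 CPM in DMSO and at 5701, 4844 and 5645 CPM in doxorubicin. All doxorubicin libraries were higher, but the log2 fold change of 0.30 ± 0.17 did not pass (edgeR adjusted p = 0.290). PGK1, which makes the first ATP of the pathway, was read at 277 and 296 CPM in DMSO and at 399, 303 and 376 CPM in doxorubicin, with a log2 fold change of 0.33 ± 0.17 (adjusted p = 0.255). Both genes therefore stood slightly above DMSO in each doxorubicin library without passing. RefSeq names 65 pseudogenes for GAPDH, and how the counting assigned reads that match several places is not known.

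Phosphoglycerate mutase and enolase, the next enzymes, each have 1 abundant form here beside scarcer ones. PGAM1 was read at 617 and 686 CPM in DMSO and at 769.7, 582 and 727 CPM in doxorubicin, a log2 fold change of 0.09 ± 0.18 (edgeR adjusted p = 0.782). PGAM4, a near-identical retrocopy outside the list, held 6.27% to 6.86% as many reads as PGAM1 in each library, and how reads that match both were assigned is not known. PGAM2, the muscle form, had 24 and 21 reads in DMSO and 30, 45 and 74 in doxorubicin, with a log2 fold change of 0.96 ± 0.40 (adjusted p = 0.162).

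ENO1, the ubiquitous enolase, was read at 1779.6 and 2268 CPM in DMSO and at 1833, 1294 and 1627 CPM in doxorubicin, a log2 fold change of -0.35 ± 0.21 (edgeR adjusted p = 0.311). ENO2, the neuronal form, was read at 73.3 and 81.1 CPM in DMSO and at 91.3, 62.4 and 81.9 CPM in doxorubicin, so its groups overlapped. ENO3, the muscle form, had 46 and 34 reads in DMSO and 89, 85 and 116 in doxorubicin, with a log2 fold change of 1.13 ± 0.30 (adjusted p = 0.0528 in edgeR and 0.0153 in DESeq2). Its libraries did not overlap, at 1.75 and 1.33 CPM against 3.44, 3.53 and 3.20 CPM, but it stayed a minor form. ENO1's share of enolase transcripts per length was 97.0% ± 0.313 in DMSO and 96.1% ± 0.0339 in doxorubicin, lower in every doxorubicin library. PKM, the pyruvate kinase that ends the pathway, was read at 4728 and 3771 CPM in DMSO and at 4172, 4067 and 4173 CPM in doxorubicin, with a log2 fold change of -0.04 ± 0.17 (adjusted p = 0.906). The counts are per gene and do not separate the M1 and M2 splice forms.

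Lactate dehydrogenase interconverts pyruvate and lactate, the A subunit being the form typical of glycolytic tissue and the B subunit that of oxidative tissue. LDHA was read at 2839 and 1752 CPM in DMSO and at 1608, 1053 and 1436 CPM in doxorubicin. Every doxorubicin library lay below both DMSO libraries, the nearest by 1752 against 1608 CPM, and the DMSO libraries themselves differed by 1.62-fold. The log2 fold change was -0.75 ± 0.27 (adjusted p = 0.117 in edgeR and 0.0405 in DESeq2), and it was -0.36 without DMSO replicate 1. LDHB was read at 341 and 509 CPM in DMSO and at 372, 454 and 357 CPM in doxorubicin, with a log2 fold change of -0.11 ± 0.22 (adjusted p = 0.780). LDHA's share of the pair per length was 82.9% and 66.7% in DMSO and 71.5%, 57.4% and 70.1% in doxorubicin, so the shares overlapped between treatments. The lower share in each pair of replicates belonged to the library with the lower PFKFB3 and PDK1.

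PDH kinases phosphorylate and inactivate pyruvate dehydrogenase. PDK1, a hypoxia-inducible form, was read at 31.9 and 14.5 CPM in DMSO, at 29.1 and 14.4 CPM in 0.2 μM doxorubicin and at 28.8 CPM in 0.34 μM doxorubicin. Its replicates differed by 2.21-fold in DMSO and 2.02-fold in 0.2 μM doxorubicin, and its log2 fold change was 0.06 ± 0.42 (edgeR adjusted p = 0.945). PDK2, the most abundant of the 4, was read at 48.6 and 26.6 CPM in DMSO and at 34.9, 29.6 and 37.8 CPM in doxorubicin, with a log2 fold change of -0.14 ± 0.27 (adjusted p = 0.768). PDK3 had between 18 and 43 reads and overlapped between groups. PDK4, which fasting and fatty acids induce, was at or under the level of 3 reads (0.0817 to 0.126 CPM) in all libraries, so a difference could not be seen at this depth. No PDH kinase differed between the treatments beyond its spread.

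The E1 subunits of pyruvate dehydrogenase diverged by point estimate. PDHA1, the catalytic alpha subunit that the kinases phosphorylate, was read at 66.6 and 54.2 CPM in DMSO and at 47.1, 47.9 and 41.5 CPM in doxorubicin, a log2 fold change of -0.41 ± 0.16 (edgeR adjusted p = 0.141). PDHB, the beta subunit of the same tetramer, was read at 92.0 and 70.8 CPM in DMSO and at 107, 96.6 and 109 CPM in doxorubicin, a log2 fold change of 0.36 ± 0.17 (adjusted p = 0.199) that went to 0.55 when DMSO replicate 1 was left out and to 0.16 when DMSO replicate 2 was. In both genes the groups did not overlap, and neither gene passed.

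In the oxidative branch of the pentose phosphate pathway, which makes NADPH, neither member passed the test. PGLS, the lactonase, was read at 24.0 and 38.0 CPM in DMSO and at 51.4, 35.9 and 45.4 CPM in doxorubicin, a log2 fold change of 0.51 ± 0.25 (edgeR adjusted p = 0.225). PGD, the dehydrogenase that releases carbon dioxide and makes ribulose 5-phosphate, was read at 280.2 and 314 CPM in DMSO and at 251, 328 and 254 CPM in doxorubicin, a log2 fold change of -0.10 ± 0.18 (adjusted p = 0.749).

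In the non-oxidative branch, transketolase (TKT, chr3:53224712-53256022) moves short carbon units between sugars and links ribose 5-phosphate to glycolysis. TKT was read at 686 and 708 CPM in DMSO, at 1512 and 1599 CPM in 0.2 μM doxorubicin and at 1709 CPM in 0.34 μM doxorubicin. Each of the 3 doxorubicin libraries held more than 2 times the level of either DMSO library, and replicate 1 was at 0.969 and 0.945 times replicate 2 in DMSO and in 0.2 μM doxorubicin. TKT rose by 1.20 ± 0.16 on the log2 scale (adjusted p = 0.00602 in edgeR, 2.45e-12 in DESeq2 and 0.00446 in limma voom). With any one of the 5 libraries left out the log2 fold change stayed between 1.16 and 1.25, but edgeR's adjusted p was between 0.0181 and 0.0392, past the threshold in none of the 5 fits. TKT overlaps no other gene in RefSeq, and no pseudogene is named for it.

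The other enzymes of the branch did not pass. TALDO1, transaldolase, was read at 131 and 212 CPM in DMSO and at 164, 171 and 152 CPM in doxorubicin, a log2 fold change of -0.08 ± 0.22 (edgeR adjusted p = 0.847). RPIA, the ribose 5-phosphate isomerase, was read at 5.99 and 7.36 CPM in DMSO and at 9.16, 7.61 and 11 CPM in doxorubicin, a log2 fold change of 0.47 ± 0.25 (adjusted p = 0.255). RPE, the ribulose 5-phosphate epimerase, was read at 53.1 and 60.2 CPM in DMSO and at 56.5, 62.6 and 56.8 CPM in doxorubicin, a log2 fold change of 0.05 ± 0.14 (adjusted p = 0.853). RPE overlaps KANSL1L and has 6 named pseudogenes. Without TKT, the pentose phosphate members took 0.0572% ± 0.0123 of library counts in DMSO and 0.0548% ± 0.00557 in doxorubicin, while TKT alone went from 0.0706% ± 0.00462 to 0.159% ± 0.0110.

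**Figure D3:**
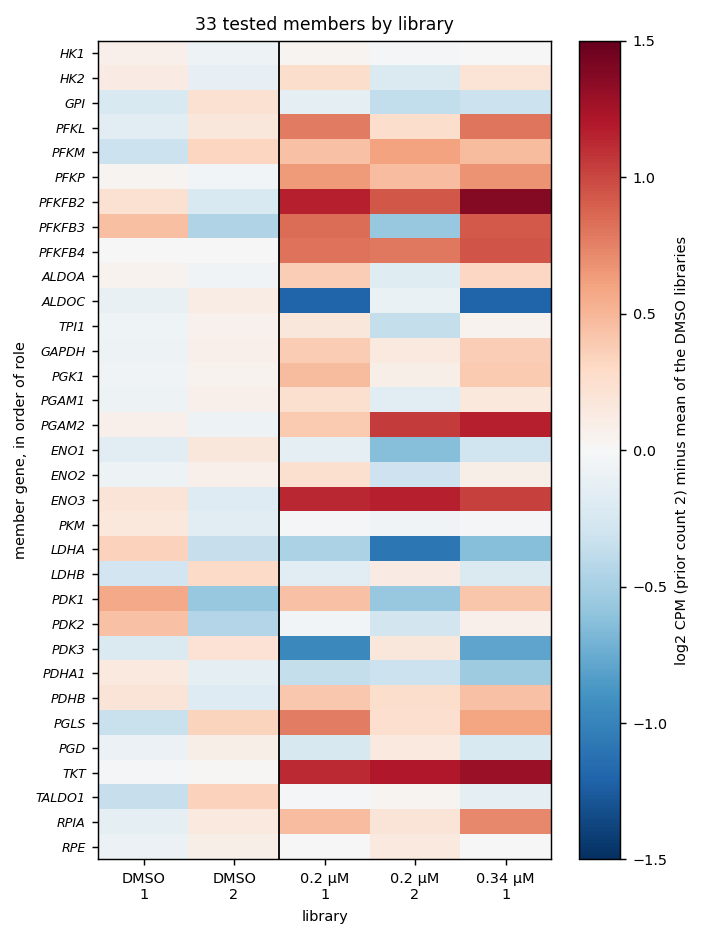
Log2 CPM (prior count 2) of the 33 tested members in each library minus the mean of the DMSO libraries, with members in order of role and a vertical line between DMSO and doxorubicin. TKT, PFKFB2, PFKFB4 and ENO3 are red in all 3 doxorubicin libraries, LDHA is blue in them, and PFKFB3 and PDK1 change colour between replicates of the same treatment.

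All 34 members together took 1.87% ± 0.0276 of library counts in DMSO (SD, n = 2) and 1.92% ± 0.125 in doxorubicin (n = 3), a difference smaller than the spread in doxorubicin. Glycolysis and lactate dehydrogenase genes took 1.72% ± 0.0166 and 1.68% ± 0.129. A share of RNA can be the same with more or less RNA per cell, and in these bulk libraries fewer cells of a kind and less RNA per cell cannot be told apart.

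**Figure D4:**
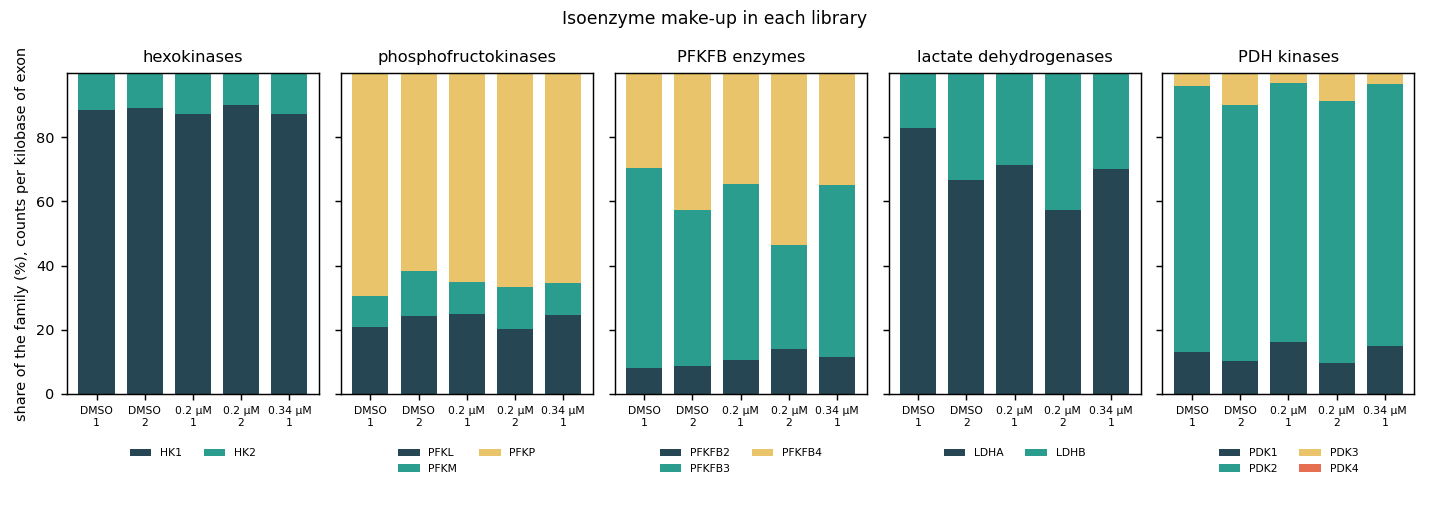
Make-up of 5 isoenzyme families in each library, as percent of the family's counts per kilobase of exon, with bars stacked to 100%. HK1, PFKP and PDK2 dominate their families in all 5 libraries, while the PFKFB and lactate dehydrogenase families differ as much between replicates as between treatments.

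Some members, picked here by these same values, shared a difference between libraries of one treatment. Replicate deviations in DMSO and in 0.2 μM doxorubicin correlated at r = 0.53 over all genes tested and 0.43 over the members. Such a division was thus not particular to these genes, and the share of all genes with it was not counted. PFKFB3, LDHA and PDK1 were at least 1.5-fold higher in replicate 1 than in replicate 2 both in DMSO and in 0.2 μM doxorubicin, by 1.88-fold and 2.66-fold for PFKFB3, by 1.62-fold and 1.53-fold for LDHA, and by 2.21-fold and 2.02-fold for PDK1. No member was 1.5-fold higher in replicate 2 in both treatments. For PFKFB3 and PDK1 the 0.34 μM library lay near the replicate 1 libraries, at 73.8 and 28.8 CPM. TXNIP, a glucose-responsive inhibitor of glucose uptake outside the list, showed the same division at 58.9 and 26.2 CPM in DMSO, 49.7 and 20.8 CPM in 0.2 μM doxorubicin and 40.4 CPM in 0.34 μM doxorubicin (log2 fold change -0.20 ± 0.44, edgeR adjusted p = 0.799). HIF1A, which encodes the hypoxia-inducible factor subunit, was read at 1057 and 541 CPM in DMSO but at 639.6 and 664 CPM in 0.2 μM doxorubicin, so it did not divide the second pair. What set these libraries apart was not tested, and the labels name no batch.

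Between the doses, 0.34 μM against 0.2 μM doxorubicin, edgeR called 0 of 33 members and 0% of all 14187 genes, and the members' smallest unadjusted p was 0.326. At an unadjusted p under 0.05, edgeR, DESeq2 and limma voom each found 0 members, and they found 22, 33 and 14 genes in all. The dose log2 fold changes of the members ran from -0.82 (ALDOC) to 0.62 (PFKFB3) with a median of 0.10, and that of TKT was 0.14 ± 0.28. The single 0.34 μM library was assumed to vary as the others do, so a difference of moderate size could not be seen.

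From the same pathways, 60 genes outside the list were laid beside the members, 43 of them tested. TIGAR, a p53 target whose product lowers fructose 2,6-bisphosphate and favours the pentose phosphate pathway, was read at 28.4 and 24.5 CPM in DMSO and at 99.3, 149.9 and 125 CPM in doxorubicin. It was the only one of the 43 that edgeR called, with 0 called lower (1.29% of all genes were called higher and 2.73% lower). It rose by a log2 fold change of 2.24 ± 0.22 (edgeR adjusted p = 0.00211), more than any member. Leaving out DMSO replicate 1 took its adjusted p to 0.0144, leaving out DMSO replicate 2 took it to 0.0223, and neither fit called it. At 0.05 in place of 0.01 it was joined by PRPS1, higher, and PRPS2, lower (6.1% of all genes were called higher and 7.48% lower). DESeq2 called 4 of the 43 higher (TIGAR, BSG, PRPS1 and SLC2A1), where 6.37% of all genes were called higher. It called 1 lower (PRPS2), where 7.72% of all genes were. The median log2 fold change of the 43 was 0.12.

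SLC2A1, the basal glucose transporter GLUT1, was read at 530.1 and 627 CPM in DMSO and at 958, 802 and 941 CPM in doxorubicin, with a log2 fold change of 0.64 ± 0.17 that passed in DESeq2 (adjusted p = 0.00744) and not in edgeR (adjusted p = 0.0570). PRPS1 and PRPS2, which turn ribose 5-phosphate into the nucleotide precursor PRPP, moved apart by point estimate. PRPS1 was read at 86.4 and 78.2 CPM in DMSO and at 148, 126 and 136 CPM in doxorubicin (edgeR adjusted p = 0.0231), and PRPS2 at 34.2 and 35.2 CPM in DMSO and at 21.8, 23.0 and 23.3 CPM in doxorubicin (adjusted p = 0.0388). BSG, the chaperone of lactate transporters, was read at 446 and 476 CPM in DMSO and at 673, 627 and 720.0 CPM in doxorubicin (adjusted p = 0.0623). The 17 untested genes were mostly forms of other tissues, such as HK3, PKLR and LDHC, and PCK1 had no reads in any library.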

How the data were processed

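RNA-seq was analysed from the gene counts the authors deposited, 5 libraries of RPE1 cells. Per the labels and the study's methods, poly-A RNA was made into stranded libraries, STAR mapped the reads to hg38, and featureCounts of Rsubread counted them per gene on the iGenomes gene models. Software versions, strand setting and handling of multiply matching reads: not given in the sources used here. Replicates are biological ones according to the methods. The treatment labels (0.2 and 0.34 μM) were used for dose, since the free protocol text gives larger concentrations with the same digits. The authors' own table of comparisons (DESeq2 mean normalized count, log2 fold change, its error, Wald statistic and p-values) was not used.

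The counts were fitted in R 4.3.3 with edgeR 4.0.16 (TMM factors, quasi-likelihood F test). Low counts were filtered by filterByExpr with DMSO and doxorubicin as groups, at settings of 10 for the minimum count and 15 for the minimum total. Benjamini-Hochberg adjustment was over all 14187 genes tested, with a threshold of 0.01. The SE of a log2 fold change was taken as its size over the root of its F statistic. DESeq2 1.42.0 and limma 3.58.1 (voom), other scalings, filters, a threshold of 0.05, a fit of 3 conditions, a replicate block and leaving out each library were alternatives. Fits were tested on simulated data. CPM values are TMM-scaled, with a prior count of 2 where a log2 level is shown, and per-length levels use the exon length of one canonical transcript per gene. Promoters and gene positions are from RefSeq on GRCh38.p14, and motifs were searched on both strands. Of the members, 19 overlap another gene and 16 have a pseudogene named for them. The members and lists were chosen with earlier results of these data known. Every member is named, in full where it passed either test or belongs to an isoenzyme family, and of the other pathway genes those that passed, TIGAR, SLC2A1 and TXNIP. HIF1A, PGAM4, BSG, PRPS1 and PRPS2 were added after their values were seen. Depth was 23773061 to 36725345 counts, which limits members with few reads.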

Additional observations from a re-analysis of the deposited data

How the results depend on the processing

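Calls among the members depended on the test more than on scaling. DESeq2 called 4 members, all higher, and 5 other pathway genes, 4 higher and 1 lower. It called 6.37% of all genes higher and 7.72% lower. At a threshold of 0.05 edgeR gave 4 members and 3 other pathway genes (where 6.1% of all genes were called higher and 7.48% lower). In a fit of 3 conditions, 0.2 μM doxorubicin alone against DMSO gave 0 members. The share of all genes called in that fit is not given here. With 1 doxorubicin library left out edgeR called 0 members each time and at most 1 other pathway gene. The share of all genes called in those fits is not given here. TIGAR was lost without DMSO replicate 1 (adjusted p = 0.0144) and without DMSO replicate 2 (adjusted p = 0.0223). The members' median log2 fold change of 0.09 ran from 0.0128 to 0.228 when a library was left out, at 0.21 without DMSO replicate 1 and 0.23 without 0.2 μM doxorubicin replicate 2. Without GAPDH the members took 1.43% of counts in DMSO and 1.39% in doxorubicin. On counts in place of counts per kilobase, the PDK2 share differed by -2.56 percentage points between doxorubicin and DMSO, against 0.00843 per length.

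Signs turned in genes close to 0. HK1 was at -0.00122 in DESeq2 and -0.0194 on total counts, TPI1 at 0.0157 and PKM at 0.00625 under upper-quartile scaling, and ENO2 at -0.0105 on total counts and -0.00679 at 0.2 μM alone. PDK1 was at -0.0908 at 0.2 μM alone. Leaving out a library gave ranges across 0 for HK1 (-0.0819 to 0.0773), HK2 (-0.0449 to 0.228), TPI1 (-0.13 to 0.11), ENO2 (-0.0902 to 0.168), PKM (-0.21 to 0.13), LDHB (-0.38 to 0.19), PDK1 (-0.42 to 0.74), PDK2 (-0.53 to 0.35), TALDO1 (-0.39 to 0.29), RPE (-0.0472 to 0.126) and TXNIP (-0.68 to 0.49). Wide ranges on one side of 0 were those of GPI (-0.51 to -0.06), PFKM (0.18 to 0.81), PFKFB3 (0.07 to 1.00), ALDOC (-1.46 to -0.65), LDHA (-1.07 to -0.36), PDK3 (-0.95 to -0.27), PDHB (0.16 to 0.55) and PGLS (0.21 to 0.87). The cause was not tested.

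The DMSO and 0.2 μM libraries share replicate numbers. Their deviations correlated at r = 0.53 over all genes tested and 0.43 over the 33 members, 20 of which deviated in the same direction, but 2 pairs are too few to take the numbers as a pairing. A fit of the DMSO and 0.2 μM libraries with the number as a block, without the 0.34 μM library, called 1 member, TKT (log2 fold change 1.16). The share of all genes called there is not given here. In that fit ENO2 was at -0.0262, PDK1 at -0.0645 and TALDO1 at 0.013. ENO2 and PDK1 were also negative at 0.2 μM alone without the block, so their signs cannot be put down to blocking. Members with few reads (ALDOC, PGAM2, ENO3, PDK3 and PDK4) are limited by depth.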
